A study of Mus musculus with 32 samples.

Results

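Chemically induced pluripotent stem cells (iPSC) obtained in the presence of DMSO, the vehicle, were compared with mouse embryonic fibroblasts (MEF), the cell type from which the reprogramming starts. The comparison rests on 4 of the 32 RNA-seq samples of the series, taken by their column titles: 2 DMSO iPSC libraries and 2 MEF libraries. All 55401 genes of the deposited table were considered, and 17414 passed the filter on low values. The question it answers is which genes are on in the reprogrammed cells and off in the starting cells, and the reverse.

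The DMSO iPSC carry the line label OG2X129, a genotype entry that names only the DMSO addition, and chemical reprogramming as treatment. Their column titles read DMSP, taken here as DMSO. The MEF carry the same line label, a genotype entry of WT shRNA and the same treatment entry, so the labels do not describe them as untouched. OG2 mice carry a green fluorescent reporter driven by the Pou5f1 promoter. The reprogramming medium held VPA, CHIR99021, 616452, Parnate, Forskolin, AM580, EPZ004777 and vitamin C, with bFGF, serum and serum replacement. These agents act on histone deacetylases, GSK3, the TGF-β receptor, LSD1, adenylyl cyclase, retinoic acid receptors and DOT1L. A pair of further groups, with 2 libraries each, place the values: CD iPSC, made on the same OG2X129 background with CD3254, an agonist of the retinoid X receptors, and R1, a mouse embryonic stem cell line from a blastocyst. The labels do not say whether the 2 libraries of a group came from separate cultures, how many iPSC lines or clones they hold, their passage, or whether feeder cells were present. The p-values therefore measure only the spread between these samples, which may be technical.

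Pluripotent cells of the mouse are held in that state by a small circuit of transcription factors around Pou5f1, Sox2 and Nanog, which bind together at composite octamer and SOX motifs and keep each other active. To reach it, a fibroblast has to silence the mesenchymal programme of collagens, contractile proteins and TGF-β signalling, gain epithelial junctions, shorten its G1 phase and reset DNA methylation. Fibroblasts also have a working interferon and inflammatory response, which embryonic stem cells largely lack.

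The promoters of 5 genes that rose are shown because they hold the letters that Pou5f1 and Sox2 read. Each runs from 250 bases before to 50 bases after the RefSeq start site, on mouse assembly GRCm38.p6, 5′ to 3′ on the strand of the gene. Capitals mark the octamer (ATGCAAAT, or ATTTGCAT on the other strand) or the SOX core (CATTGT, or ACAATG on the other strand).
Nanog, chr6:122707239-122707538, plus strand: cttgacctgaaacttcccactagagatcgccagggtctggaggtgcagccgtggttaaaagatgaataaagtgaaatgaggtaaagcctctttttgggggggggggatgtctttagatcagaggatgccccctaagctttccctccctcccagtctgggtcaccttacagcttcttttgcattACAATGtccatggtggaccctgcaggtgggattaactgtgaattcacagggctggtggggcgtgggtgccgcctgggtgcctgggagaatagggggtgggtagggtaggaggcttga
Zfp42, chr8:43306960-43307259, minus strand: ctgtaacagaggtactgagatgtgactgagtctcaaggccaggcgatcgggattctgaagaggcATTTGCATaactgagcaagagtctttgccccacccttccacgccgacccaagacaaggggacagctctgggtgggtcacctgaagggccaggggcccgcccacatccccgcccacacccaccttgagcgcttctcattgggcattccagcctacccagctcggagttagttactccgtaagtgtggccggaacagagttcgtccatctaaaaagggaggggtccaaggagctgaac
Zfp296, chr7:19577037-19577336, plus strand: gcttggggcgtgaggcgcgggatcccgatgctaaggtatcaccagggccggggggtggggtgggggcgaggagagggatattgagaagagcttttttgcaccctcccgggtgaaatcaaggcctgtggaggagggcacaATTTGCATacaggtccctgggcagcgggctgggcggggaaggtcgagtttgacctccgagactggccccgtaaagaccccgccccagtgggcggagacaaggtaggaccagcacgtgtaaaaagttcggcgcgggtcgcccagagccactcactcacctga
Lin28a, chr4:134018767-134019066, minus strand: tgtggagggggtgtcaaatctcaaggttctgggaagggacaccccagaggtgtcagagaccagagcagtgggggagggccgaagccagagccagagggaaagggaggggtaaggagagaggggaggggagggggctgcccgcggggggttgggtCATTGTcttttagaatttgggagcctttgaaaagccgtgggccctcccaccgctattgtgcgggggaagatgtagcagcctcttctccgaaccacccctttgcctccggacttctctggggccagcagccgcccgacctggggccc
Chchd10, chr10:75932880-75933179, plus strand: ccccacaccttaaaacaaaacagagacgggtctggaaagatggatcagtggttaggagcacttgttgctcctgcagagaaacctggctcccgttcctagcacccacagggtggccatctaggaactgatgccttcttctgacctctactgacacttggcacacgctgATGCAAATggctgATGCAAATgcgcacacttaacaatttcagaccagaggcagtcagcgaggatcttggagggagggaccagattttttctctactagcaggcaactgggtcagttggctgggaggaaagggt
The Nanog match begins 67 bases before the start site. The Zfp42 match begins 186 bases, the Zfp296 match 111 bases and the Lin28a match 96 bases before the start site, and Chchd10 holds 2 octamers, at 83 and 70 bases. Nanog has 2 promoters in the RefSeq table, of which the first is printed. Over all 32851 promoters of that table, 1.74% hold the octamer and 12.6% the SOX core on either strand. Of 20 core and naive pluripotency factors, 14 had a promoter in that table. Among their 18 promoters, 2 hold the octamer and 4 the SOX core. Of 30 pluripotency-associated genes tested, 17 had a promoter there. Among their 19 promoters, 2 hold the octamer and 1 the SOX core. The 5 printed genes were chosen after their values were seen, and a match is a description of letters, not of binding. A comparison of motif shares between genes that rose and genes that fell is void, because only 11357 of 17398 gene symbols tested had a promoter in the table, under 80%.

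The DMSO iPSC libraries listed 14744 and 14796 genes at 1 TPM or more and the MEF libraries 14361 and 14322. TPM (transcript level per length, scaled to a fixed library total) keeps no read total, so the depth is unknown. Mitochondrial transcripts took 17.4% and 16.2% of all TPM in DMSO iPSC, against 9.50% and 7.46% in MEF. Pearson's r of log2(TPM + 1) was taken over all 55401 genes listed, before the filter. It was 0.991 between the DMSO iPSC libraries, 0.993 between the MEF libraries and 0.882 to 0.885 between the groups. Of these genes 30650 were at 0 in all 4 libraries, and such shared zeros raise r. These correlations are across genes, which are not independent replicates.

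Differences were tested with limma on log2(TPM + 1), and all changes below are DMSO iPSC minus MEF on that scale unless said otherwise. At an adjusted p under 0.05, 5465 genes (31.4% of those tested) were higher in DMSO iPSC and 6303 (36.2%) were lower. Together these were 67.6% of the genes tested, which leaves 5646 genes without a call. With a change of at least 4-fold as well, 1323 genes (7.6%) were higher and 2077 (11.9%) lower. The median change over all genes tested was -0.01. Other scalings of the same values moved the share of calls that were higher from 46.4% to between 50.5% and 52%. The lists described below were read against these shares. The filter took in all 8 libraries, so a gene silent in a group passes it only through other groups, CD iPSC and R1 included. The counts therefore describe the lists and do not test them.

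**Figure D1:**
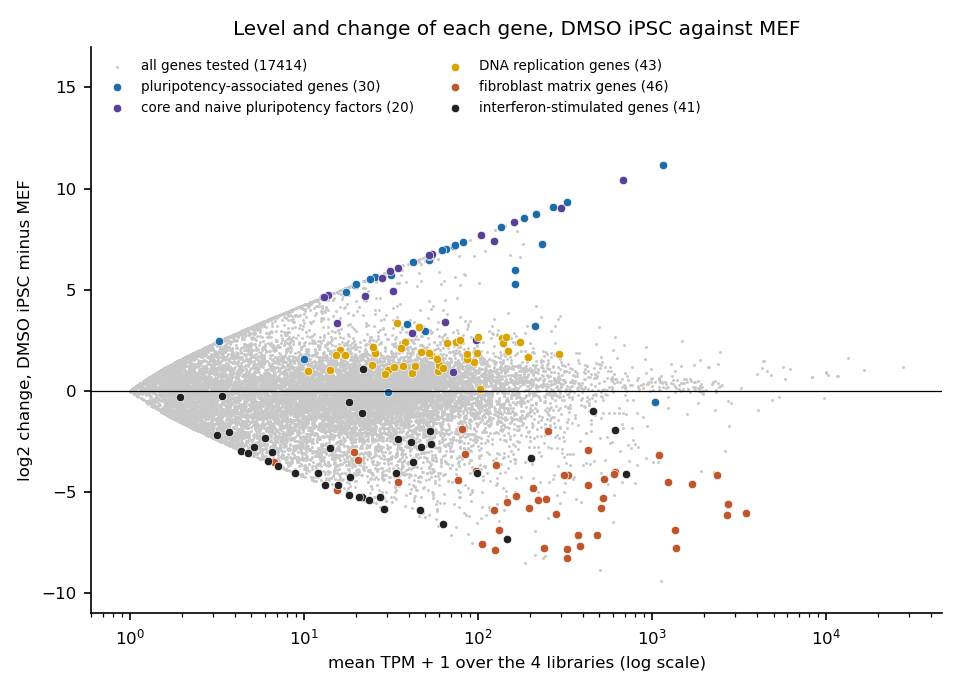
Each point is a gene, with its mean TPM + 1 over the 4 libraries on a log axis and its log2 change, DMSO iPSC minus MEF, on the vertical axis. Coloured points are the members of 5 lists: all 20 core and naive pluripotency factors lie above 0, and all 46 fibroblast matrix genes lie below it.

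The core and naive pluripotency factors were higher in DMSO iPSC, and several were listed at 0 in MEF. All 20 core and naive factors of the list passed the filter and all 20 rose, with a median change of 5.24 beside -0.01 for all genes. Pou5f1 (ENSMUSG00000024406, chr17:35506018-35510772), the POU factor on which the state depends, had 1275 and 1446 TPM in DMSO iPSC and was listed at 0 in both MEF libraries (adjusted p = 3.18e-08). Nanog had 618 and 578 TPM in DMSO iPSC, against 0 and 0.288 TPM in MEF (adjusted p = 3.15e-08). Sox2, the partner of Pou5f1, had 240.5 and 251 TPM in DMSO iPSC, against 0.491 and 0.412 TPM in MEF, a change of 7.41 ± 0.12 (SE; adjusted p = 4.96e-08). The groups were far apart for these 3 genes, and the libraries within a group lay close together. Zfp42, whose promoter is printed above, had 315 and 328 TPM in DMSO iPSC and was listed at 0 in MEF. In DMSO iPSC the naive factors Esrrb (185 and 230 TPM), Nr0b1 (105 and 110.1 TPM), Sall4 (102 and 104 TPM) and Tfcp2l1 (66.3 and 68.4 TPM) were expressed, and they were likewise listed at 0 in both MEF libraries. In the R1 libraries Pou5f1 had 1087 and 1199 TPM, Sox2 288 and 320.3 TPM and Nanog 882 and 903 TPM.

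Some factors of the list had RNA in the fibroblasts. Klf2 had 169 and 163 TPM in DMSO iPSC, against 26.0 and 29.8 TPM in MEF, Klf5 123 and 112 TPM in DMSO iPSC, against 10.3 and 10.4 TPM in MEF, and Tbx3 70.3 and 74.5 TPM in DMSO iPSC, against 9.61 and 8.39 TPM in MEF. Klf4, with Myc one of the classical reprogramming factors, had 90.3 and 94.6 TPM in DMSO iPSC, against 51.7 and 45.5 TPM in MEF, the smallest change of the 20 factors (0.92 ± 0.16, adjusted p = 0.00156). Myc, a proto-oncogene, had 39.8 and 37.4 TPM in DMSO iPSC, against 41.8 and 39.0 TPM in MEF, and was not called (-0.06 ± 0.40, adjusted p = 0.903), with a sign that turned positive under the other scalings. The 4 libraries overlapped, while R1 had 6.4 and 8.4 TPM and CD iPSC 1.6 and 0 TPM. The standard error pools the spread within all 4 groups, R1 and CD iPSC included. With the 4 compared libraries alone, the limma test gave Myc an adjusted p of 0.53. Mycn, the family member of embryonic cells, had 41.8 and 43.0 TPM in DMSO iPSC, against 0.982 and 0.39 TPM in MEF. Lin28a, which blocks let-7 maturation, had 139 and 149 TPM in DMSO iPSC and was listed at 0 in MEF.

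Of 31 further pluripotency-associated genes, 30 passed the filter, 28 rose, 1 fell and 1 was not called, with a median change of 6.19. Dppa5a, an RNA-binding protein of early embryos, had the largest fitted change of the named genes, at 2327 and 2319 TPM in DMSO iPSC and 0 in both MEF libraries. Tdgf1, the Nodal co-receptor, had 649 and 644 TPM, Utf1, a chromatin factor, 553 and 531 TPM, L1td1, an RNA-binding protein, 380 and 357 TPM, and Fbxo15 285 and 257 TPM in DMSO iPSC, all listed at 0 in MEF. The 15 largest rises also held Trap1a (279 and 272 TPM in DMSO iPSC) and Rhox5 (268 and 398 TPM in DMSO iPSC), both X-linked and listed at 0 in MEF. Upp1, uridine phosphorylase, had 365 and 301 TPM in DMSO iPSC, against 0.949 and 0 TPM in MEF. Thus most of the strongest rises started from genes with no detected RNA in the fibroblasts, for which no fold can be given. Spp1, the secreted protein osteopontin, fell, with 864 and 809 TPM in DMSO iPSC against 1177 and 1302 TPM in MEF (-0.57 ± 0.10). Zfp296, whose printed promoter was picked among genes already seen to rise, had 50.2 and 58.1 TPM in DMSO iPSC, against 0.138 and 0.188 TPM in MEF. Chchd10, a mitochondrial protein, had 377 and 391 TPM in DMSO iPSC, against 36.1 and 46.4 TPM in MEF.

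**Figure D2:**
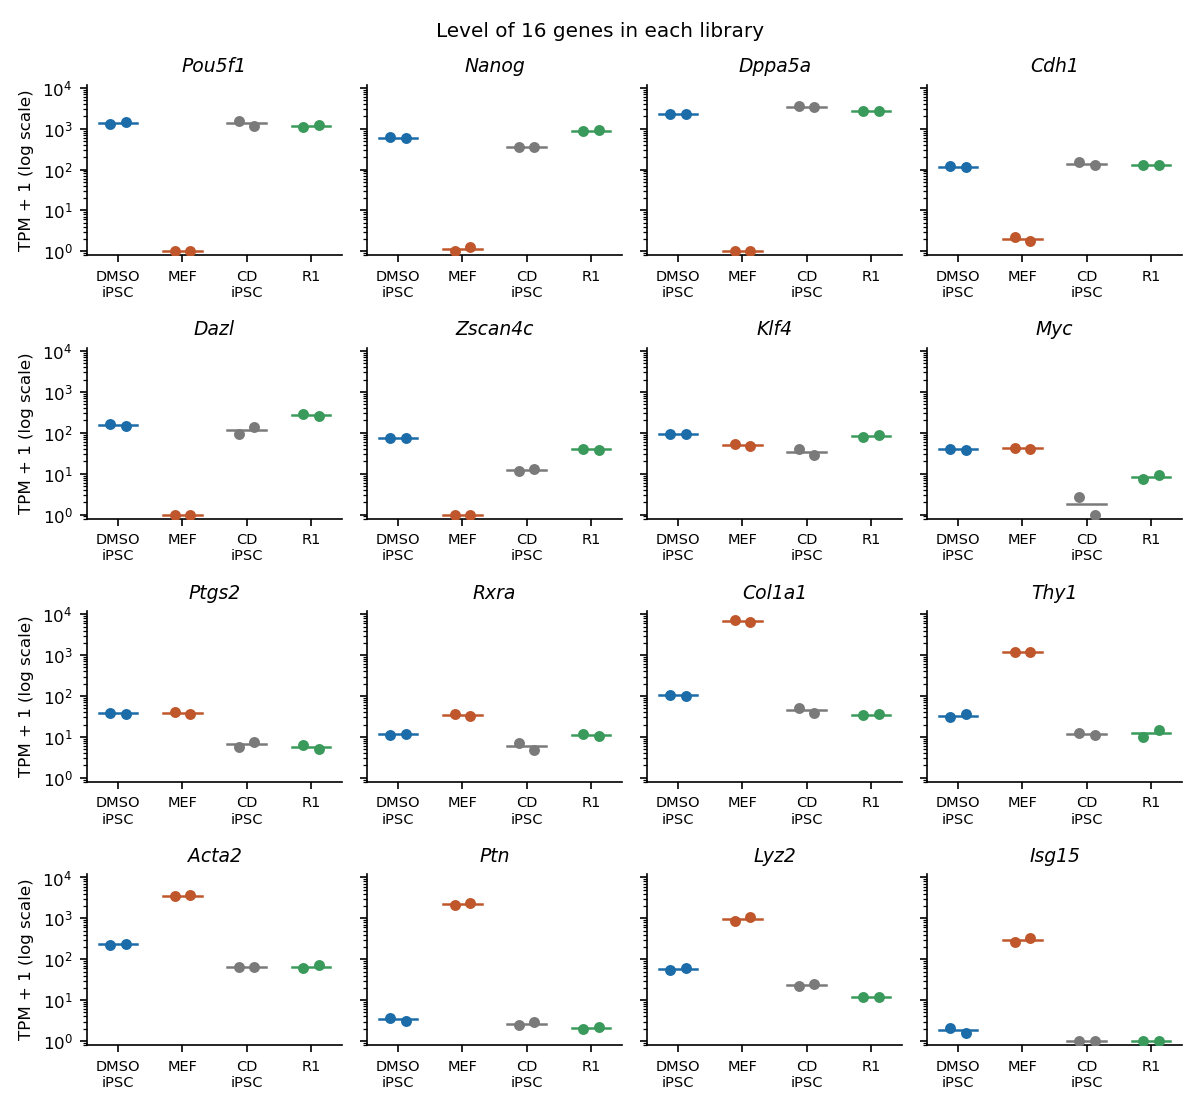
Each panel gives TPM + 1 on a log axis for 1 gene in DMSO iPSC, MEF, CD iPSC and R1, with a point per library and a line at the group mean. Pou5f1, Nanog and Dppa5a are at or near 0 in MEF only, Col1a1, Ptn and Isg15 are highest in MEF, and Myc and Ptgs2 stand at like levels in DMSO iPSC and MEF.

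Genes of the later, formative stage were mixed. Of 13 such genes, 12 passed the filter, 8 rose and 2 fell. Zic2, a zinc finger factor, had 18.6 and 17.5 TPM in DMSO iPSC, against 0.235 and 0.261 TPM in MEF, and 4.47 and 4.33 TPM in R1. Otx2, a driver of the formative state, had 5.50 and 4.13 TPM in DMSO iPSC and was listed at 0 in MEF. Sox4 (-3.25) and the N-cadherin gene Cdh2 (-3.22), which fibroblasts use, fell. Fgf5, the usual mark of that stage, did not pass the filter, at 0.307 and 0 TPM in DMSO iPSC and 1.48 and 0.593 TPM in MEF.

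Signalling genes went in both directions. Of 41 FGF, BMP, LIF and Wnt pathway genes, 39 passed the filter, 12 rose and 21 fell, and the share that rose was near that of all genes. Fgf4, the autocrine FGF of pluripotent cells, had 102 and 103 TPM in DMSO iPSC and was listed at 0 in MEF, and the ERK targets Etv4 (2.88), Etv5 (2.80) and Spry4 (2.47) rose. Tcf7, a Wnt effector, rose (2.98), as did Socs3, a target of LIF signalling, at 74.2 and 77.3 TPM in DMSO iPSC against 22.2 and 23.0 TPM in MEF. The Wnt and BMP modulators Dkk3 (-5.55), Grem1 (-4.08), Sfrp2 (-3.51) and Wnt5a (-4.10) fell, as did Il6st, the signal-transducing receptor of LIF, at 16.1 and 16.4 TPM in DMSO iPSC against 124.5 and 96 TPM in MEF (-2.68). Dusp6, another ERK target, had 34.8 and 36.6 TPM in DMSO iPSC and 33.0 and 37.7 TPM in MEF, with no call.

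Genes that somatic cells keep methylated were expressed in the iPSC. Of 27 germline genes, 25 passed the filter and 23 rose, none fell, and the median change was 3.61. Dazl, an RNA-binding protein of germ cells, had 160 and 143 TPM in DMSO iPSC and was listed at 0 in MEF. Hormad1, of the meiotic chromosome axis, had 65.4 and 64.9 TPM, and Sohlh2, a germ cell factor, 53.5 and 48.4 TPM in DMSO iPSC, both also at 0 in MEF. R1 had more of these 3 genes, with 283 and 258 TPM for Dazl. Rpl10l (273 and 296 TPM in DMSO iPSC, 0 in MEF), a retrogene of Rpl10, and Tuba3a (62.5 and 54.4 TPM in DMSO iPSC, 0 in MEF) have near copies, so that their counts are uncertain.

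The transcripts of the 2-cell-like state, which appears in a few cells of a pluripotent culture at a time, were found as well. Of 23 listed genes 21 were in the table, 20 passed the filter, 19 rose and 1 fell. Their summed level was 415 and 421 TPM in DMSO iPSC, against 2.88 and 1.44 TPM in MEF. It was 64.7 and 63.9 TPM in CD iPSC and 235 and 245 TPM in R1. Zscan4c, a member of the cluster that marks that state, had 71.6 and 73.6 TPM in DMSO iPSC and was listed at 0 in MEF, with 38.5 and 37.5 TPM in R1. Compared with R1, on values scaled to the median gene, 9 of the 20 were higher in DMSO iPSC and none lower, beside 9.31% higher and 7.22% lower of all genes. When 1 library was left out, 4 to 6 were higher, beside 2.66% to 2.98% of all genes. The Zscan4 copies share reads, so the level of each is uncertain, and in bulk RNA fewer cells of a type and less RNA per cell cannot be told apart. The gene that fell, Sp110, had 0.986 and 0.402 TPM in DMSO iPSC and 2.88 and 1.44 TPM in MEF, and its call was lost without the second DMSO iPSC library (adjusted p = 0.129) or the first MEF library (adjusted p = 0.103).

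Genes of DNA methylation mostly rose. Of 22 genes for DNA methylation and demethylation, all passed the filter, 13 rose and 5 fell. Dnmt3l, the cofactor of the de novo methyltransferases, had 235 and 266 TPM in DMSO iPSC and was listed at 0 in MEF, and the methyltransferase gene Dnmt3b had 92.7 and 89.1 TPM in DMSO iPSC against 0.812 and 1.53 TPM in MEF. The de novo methyltransferase gene Dnmt3a, the maintenance methyltransferase gene Dnmt1 and its cofactor Uhrf1 rose too, Dnmt1 with 93.7 and 96.3 TPM in DMSO iPSC against 43.2 and 35.8 TPM in MEF. Tet1, a 5-methylcytosine oxidase, had 27.9 and 27.5 TPM in DMSO iPSC, against 0.975 and 0.748 TPM in MEF. Its relative Tet2 rose, with 21.2 and 23.7 TPM in DMSO iPSC against 4.65 and 2.64 TPM in MEF, while Tet3 fell, with 1.64 and 2.13 TPM in DMSO iPSC against 10.6 and 8.91 TPM in MEF. Zfp57, which protects imprints, rose (3.15), and Gadd45g (-3.30), Mbd2 (-2.14) and Mbd1 (-1.04) fell.

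Subunits of Polycomb repressive complex 2, which methylates histone H3, mostly rose: of 12 listed genes found, 8 rose and 1 fell. Epop, a stem cell subunit, had 333 and 356 TPM in DMSO iPSC, against 2.27 and 2.83 TPM in MEF, with 155 and 195 TPM in R1. Jarid2, which recruits the complex, had 123 and 123 TPM in DMSO iPSC, against 4.93 and 4.02 TPM in MEF. The core subunits Eed (2.73), Ezh2 (2.31) and Suz12 (1.90) rose less, and Phf1 fell (-1.54). In the BAF chromatin remodeller 5 of 24 subunits that passed the filter rose and 12 fell, and with median ratio scaling 7 rose and 9 fell. The ATPase gene Smarca2 had 1.27 and 1.34 TPM in DMSO iPSC, against 35.4 and 30.6 TPM in MEF. Smarcc2 (-2.15) and Smarcd3 (-1.87) fell, whereas Smarcd1 (1.88) and Actl6a (1.92), both known from the stem cell form of the complex, rose. Dpf1 and Arid1a also rose, and Dpf1 lost its call without either DMSO iPSC library or the first MEF library. A change in the form of the complex was not tested.

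Cell adhesion switched from mesenchymal to epithelial. Of 34 epithelial genes 30 passed the filter, 27 rose and 1 fell, with a median change of 1.93. Cdh1, which encodes E-cadherin, had 118 and 116 TPM in DMSO iPSC, against 1.23 and 0.813 TPM in MEF (5.88 ± 0.13, adjusted p = 1.64e-07). The adhesion gene Epcam (56.6 and 54.4 TPM), the tight junction gene Cldn4 (29.1 and 32.0 TPM) and the epithelial factor Elf3 (38.9 and 39.0 TPM) were expressed in DMSO iPSC and listed at 0 in MEF. Krt19, an epithelial keratin, fell (-1.22), a call that was lost without the first DMSO iPSC library (adjusted p = 0.0613) or the second MEF library (adjusted p = 0.0911). Of 52 mesenchymal identity genes, 46 passed the filter, 43 fell and none rose. The mesenchymal cadherin Cdh11 had 5.43 and 5.51 TPM in DMSO iPSC, against 517 and 477 TPM in MEF (-6.27). The PDGF receptors Pdgfrb (-5.91) and Pdgfra (-5.83) and the factors Msx1 (-5.30), Osr1 (-5.27) and Twist2 (-5.25) fell similarly.

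The matrix programme was the group with the lowest median. All 46 fibroblast matrix genes of the list passed the filter and all 46 fell, by a median of 5.06 on the log2 scale. Their summed level was 1749 and 1705 TPM in DMSO iPSC, against 54513 and 50973 TPM in MEF. Col1a1, the main chain of type I collagen, had 104 and 100.1 TPM in DMSO iPSC, against 7118 and 6515 TPM in MEF (-6.05 ± 0.13, adjusted p = 1.23e-07). Thy1, a surface marker of fibroblasts, had 29.2 and 35.5 TPM in DMSO iPSC, against 1161 and 1188 TPM in MEF (-5.14). The largest fall of all named genes was that of Ptn, the growth factor pleiotrophin, with 2.70 and 2.03 TPM in DMSO iPSC against 2157 and 2334 TPM in MEF (-9.39 ± 0.17, adjusted p = 7.17e-08). Aspn (-8.88), Mfap4 (-8.25), Fbln5 (-7.84), Dcn (-7.76), Col3a1 (-7.74), Col6a2 (-7.68) and Eln (-7.56), which encode matrix proteins, followed. Ccn3, a matricellular protein, had 0.608 and 0.43 TPM in DMSO iPSC and 422 and 423 TPM in MEF. Lum had 0.157 and 0 TPM in DMSO iPSC and 251 and 244 TPM in MEF. Lrrc17 and the R-spondin receptor gene Lgr5 were listed at 0 in both DMSO iPSC libraries, and in MEF Lrrc17 had 375 and 363 TPM and Lgr5 196 and 172 TPM.

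The fibroblast transcripts did not reach 0 in every case, and R1 gives the level of a line that never was a fibroblast culture. For each of the 46 matrix genes the DMSO iPSC mean was set against the MEF mean, and the median share was 2.33%, with the lowest 0% for Mmp3 and the highest 26.6% for Fbln1. The same median was 0.895% in CD iPSC and 0.912% in R1. Fbln1 itself stood at 67.7% of its MEF mean in CD iPSC and at 35.4% in R1, above its share in DMSO iPSC. Compared with R1, Col1a1 had 104 and 100.1 TPM in DMSO iPSC against 33.6 and 34.7 TPM in R1, and Thy1 had 29.2 and 35.5 TPM in DMSO iPSC against 9.0 and 13.7 TPM in R1. Before scaling, 1101 genes (6.32%) were higher and 2567 (14.7%) lower in DMSO iPSC than in R1, with a median of -0.13 over all genes. This split moved to 1622 higher (9.31%) and 1257 lower (7.22%) after scaling each library to the median gene, and all R1 comparisons below are given on that scale. On it, 31 of the 46 matrix genes were higher in DMSO iPSC than in R1 and 1 was lower, with a median of 0.99. Some other lists went the other way with all libraries in the fit. Of 38 mitosis genes 10 were lower than in R1 and none higher, and of 25 glycolysis genes 9 were lower and none higher. Of 25 germline genes 6 were lower and 2 higher, and of 30 epithelial genes 6 were lower and 2 higher. Leaving out either library of either group lowered the calls over all genes to 463 to 519 higher, or 2.66% to 2.98%. In those fits 22 to 25 matrix genes were higher, with medians of 0.99 to 1.12. Which cells gave these transcripts was not tested.

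The contractile genes kept more of their level. Of 30 contractile genes and targets of SRF or YAP, 28 fell and 2 rose, with a median of -2.91. Acta2, smooth muscle actin, had 224 and 239 TPM in DMSO iPSC, against 3497 and 3708 TPM in MEF (-3.95), and R1 had 59.8 and 69.7 TPM. Myl9, a myosin light chain, had 47.3 and 49.2 TPM in DMSO iPSC, against 561 and 615 TPM in MEF, and 6.84 and 8.17 TPM in R1. Of 29 members with at least 10 TPM in MEF, the median DMSO iPSC level was 12.5% of the MEF level and the median R1 level 6.11%. On the scaled values, 22 of 30 were higher in DMSO iPSC than in R1 and none was lower (median 1.32), with 16 to 18 higher when 1 library was left out. Ajuba (0.80) and the YAP target Ankrd1 (0.55) rose, the second with 25.7 and 24.6 TPM in DMSO iPSC against 16.5 and 17.2 TPM in MEF, a call that was lost without the first DMSO iPSC library (adjusted p = 0.0512).

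**Figure D3:**
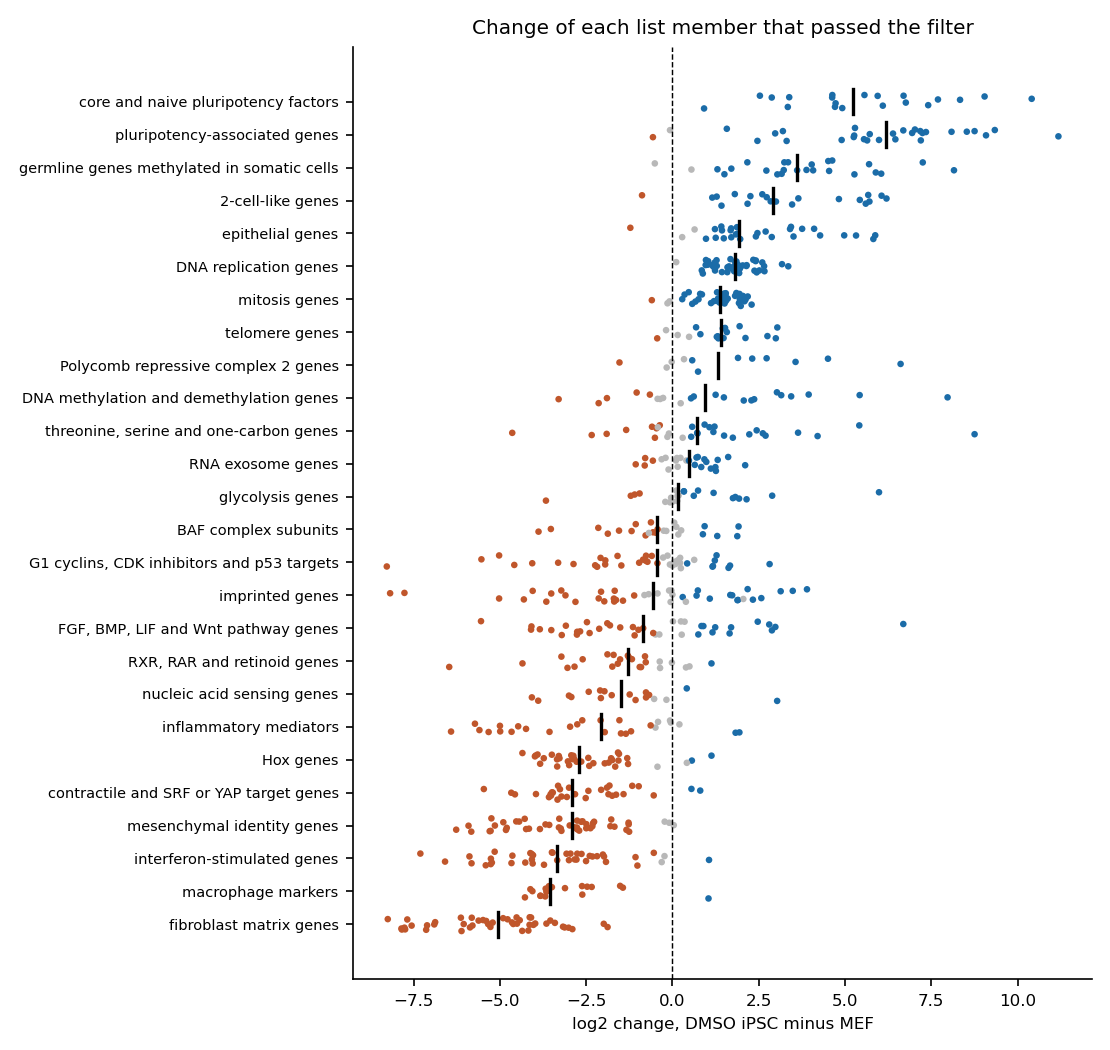
Each point is a list member that passed the filter, placed by its log2 change, DMSO iPSC minus MEF, with blue for genes called higher, orange for genes called lower and grey for genes not called. Black bars are list medians and the dashed line is the median of all genes tested, -0.01: pluripotency lists lie at the right, matrix, macrophage and interferon lists at the left, and glycolysis genes lie around the line.

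Interferon-stimulated genes fell almost as a block. Of 41 such genes all passed the filter, 38 fell, 1 rose and 2 were not called, with a median of -3.34. Isg15, a ubiquitin-like modifier, had 1.11 and 0.585 TPM in DMSO iPSC, against 258 and 321 TPM in MEF (-7.30 ± 0.21, adjusted p = 3.57e-07). Ifit1, which binds viral RNA, had 0.366 and 0.232 TPM in DMSO iPSC, against 133 and 115 TPM in MEF (-6.59). Usp18, the protease that removes that modifier, was listed at 0 in both DMSO iPSC libraries and had 52.98 and 58.2 TPM in MEF. The antiviral genes Irf7 (-5.41), Ifit3 (-5.88) and Rtp4 (-5.26) fell as well. In R1 Isg15 and Rtp4 were listed at 0 in both libraries. Ifitm1 rose, with 24.8 and 32.5 TPM in DMSO iPSC against 12.9 and 13.3 TPM in MEF (1.06), and it is known from pluripotent and primordial germ cells.

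The sensors upstream of interferon followed in part. Of 21 nucleic acid sensing genes 18 passed the filter, 14 fell and 2 rose. Ifih1, a sensor of double-stranded RNA, was listed at 0 in both DMSO iPSC libraries and had 16.2 and 15.4 TPM in MEF. Tmem173, which encodes STING, had 2.24 and 3.25 TPM in DMSO iPSC, against 60.8 and 47.9 TPM in MEF (-3.89). Aim2, a sensor of cytosolic DNA, rose, with 31.4 and 23.0 TPM in DMSO iPSC against 2.16 and 2.67 TPM in MEF (3.03). Of 34 inflammatory mediators 27 passed the filter, 20 fell, 2 rose and 5 were not called. Il1rl1, the receptor of IL-33, had 3.24 and 1.21 TPM in DMSO iPSC, against 260.3 and 259 TPM in MEF (-6.41), and the chemokines Cxcl12 (-5.72), Cxcl14 (-5.59), Cxcl10 (-5.33), Ccl7 (-5.00) and Ccl2 (-4.99) fell. Icam1, an adhesion receptor, rose (1.94), as did the acute phase gene Saa3 (1.83), whose call was lost without the second DMSO iPSC library (adjusted p = 0.133) or the first MEF library (adjusted p = 0.179). Ptgs2, the inducible cyclooxygenase, had 37.8 and 35.8 TPM in DMSO iPSC and 39.8 and 36.3 TPM in MEF, with no call (adjusted p = 0.85), and 5.24 and 3.93 TPM in R1; it was named after its values were seen.

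Macrophage markers moved with the immune genes. Of 18 markers 17 fell and 1 rose, with a median of -3.54, and their summed level was 204 and 214 TPM in DMSO iPSC, against 1503 and 1789 TPM in MEF, and 157 and 156 TPM in R1. Lyz2, lysozyme, had 53.5 and 59.9 TPM in DMSO iPSC, against 869 and 1057 TPM in MEF, and 10.7 and 10.8 TPM in R1. Of the defining markers, Csf1r had 1.03 and 1.04 TPM in DMSO iPSC against 27.2 and 23.3 TPM in MEF, Adgre1 2.40 and 1.27 TPM in DMSO iPSC against 16.99 and 12.2 TPM in MEF, and Ptprc 0.378 and 0.25 TPM in DMSO iPSC against 5.91 and 5.38 TPM in MEF. Aif1 and Cd52 were listed at 0 in DMSO iPSC, and no marker of the list was at 0 in MEF. Laptm5 rose (1.04), and its level made up much of the DMSO iPSC sum, with 93.1 and 93.4 TPM. Compared with R1 on the scaled values, 8 of the 18 were higher in DMSO iPSC and none lower, with 4 higher when 1 library was left out, beside the shares of all genes given above. The part of these markers in the fall of the inflammatory and interferon genes was not tested. Of 16 endothelial markers 12 passed the filter, 5 rose and 4 fell. The VEGF receptor gene Flt1 had 2.63 and 2.08 TPM in DMSO iPSC, against 52.0 and 43.3 TPM in MEF, while Cdh5, the endothelial cadherin, was at 0 in both DMSO iPSC libraries and at 0.099 and 0 TPM in MEF. Pecam1, an endothelial and pluripotent cell marker, had 36.3 and 37.9 TPM in DMSO iPSC and was listed at 0 in MEF.

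Replication and mitosis genes rose together. Of 43 DNA replication genes 42 rose and none fell, with a median of 1.81. Orc1, of the origin recognition complex, had 63.5 and 58.7 TPM in DMSO iPSC, against 5.89 and 4.34 TPM in MEF (3.36), and the helicase genes Mcm10 (3.17), Mcm5 (2.67) and Mcm2 (2.60) followed. Of 38 mitosis genes 35 rose and 1 fell, with a median of 1.39. Ccnb1, the mitotic cyclin B, had 287 and 253 TPM in DMSO iPSC, against 53.6 and 54.8 TPM in MEF (2.29), and the checkpoint kinase genes Bub1b (2.12), Ttk (2.09) and Bub1 (2.04) rose. The proliferation marker Mki67 was not called, at 22.9 and 22.2 TPM in DMSO iPSC and 29.3 and 21.4 TPM in MEF, and was named after its values were seen. Cdc25b fell (-0.60), a call that was lost without the second DMSO iPSC library (adjusted p = 0.0603) or the first MEF library (adjusted p = 0.0726).

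Genes of the G1 phase went in both directions. Of 41 G1 cyclins, CDK inhibitors and p53 targets, 8 rose and 21 fell. Ccne1, cyclin E, had 208 and 217 TPM in DMSO iPSC, against 29.0 and 29.7 TPM in MEF (2.81), while Ccnd2, a D-type cyclin, had 14.8 and 13.3 TPM in DMSO iPSC against 292 and 215 TPM in MEF (-4.06). The inhibitor genes Cdkn1c (-5.02) and Cdkn2b (-3.31) fell, and Cdkn2a, the locus of Ink4a and Arf, had 20.2 and 23.6 TPM in DMSO iPSC against 89.3 and 118 TPM in MEF. Trp53 itself had 294 and 297 TPM in DMSO iPSC, against 126.5 and 134.5 TPM in MEF, yet its target Cdkn1a had 95.0 and 106 TPM in DMSO iPSC against 302.5 and 306 TPM in MEF. The apoptosis genes Perp (1.67) and Pmaip1 (1.28) rose. The IGF-binding proteins counted among senescence genes fell: Igfbp5 had 0.291 and 0.787 TPM in DMSO iPSC against 536 and 412 TPM in MEF, and Igfbp3 (-5.53) and Igfbp7 (-4.58) followed.

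The Hox genes, which record the position of a cell along the body axis, were largely off in the iPSC. Of 39 genes 36 passed the filter, 32 fell and 2 rose. The summed level of the Hoxa cluster was 7.68 and 8.95 TPM in DMSO iPSC against 89.9 and 90.7 TPM in MEF. The Hoxb sum was 10.6 and 12.0 TPM in DMSO iPSC against 131.5 and 144 TPM in MEF. The Hoxc sum was 17.98 and 14.3 TPM in DMSO iPSC against 165 and 186 TPM in MEF, and the Hoxd sum was 2.38 and 4.29 TPM in DMSO iPSC against 89.0 and 101.5 TPM in MEF. All 4 clusters, on chromosomes 6, 11, 15 and 2, were thus low together. Hoxb9 was the highest Hox gene of the fibroblasts, with 3.46 and 4.21 TPM in DMSO iPSC and 69.8 and 65.6 TPM in MEF, and Hoxd8 fell most (-4.35). Hoxc13 rose, with 4.14 and 5.56 TPM in DMSO iPSC against 1.95 and 1.38 TPM in MEF.

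**Figure D4:**
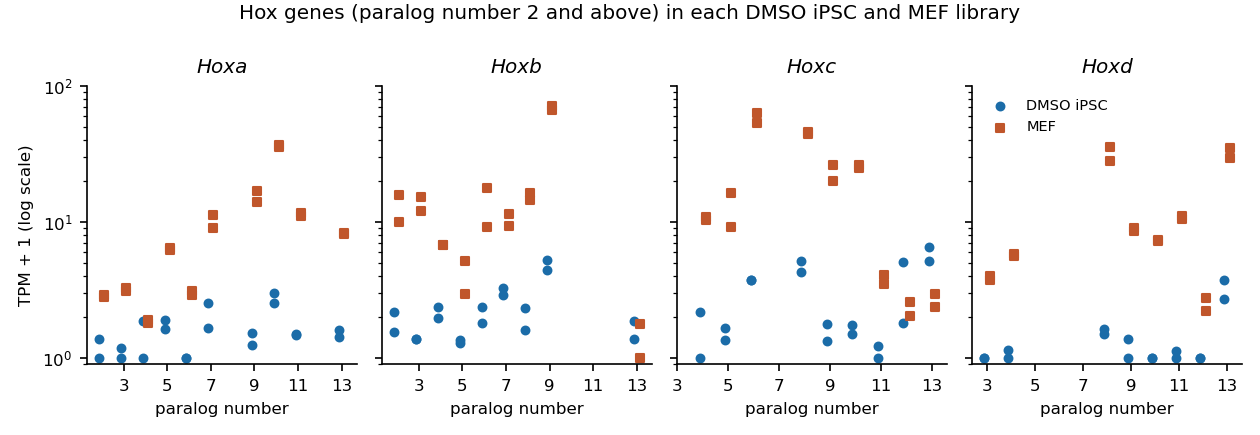
TPM + 1 on a log axis for Hox genes of paralog number 2 and above in the 4 clusters, with a blue circle for each DMSO iPSC library and an orange square for each MEF library. MEF values peak at Hoxb9 and Hoxc6, and DMSO iPSC values lie below them except at Hoxc13, in 1 library at Hoxc12, and at genes near 0.

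Imprinted genes went in both directions. Of 49 listed, 42 passed the filter, 14 rose and 19 fell, beside 31.4% higher and 36.2% lower of all genes tested. The share that rose was near that of all genes. Igf2, the paternally expressed growth factor, had 1.57 and 0.091 TPM in DMSO iPSC, against 521 and 451 TPM in MEF (-8.18 ± 0.37), and its neighbour H19 had 117 and 122 TPM in DMSO iPSC, against 1410 and 1631 TPM in MEF (-3.65). H19 had 26.8 and 27.4 TPM in R1 and 22.7 and 18.2 TPM in CD iPSC, below both DMSO iPSC libraries. At the Dlk1 and Meg3 locus, whose silencing is a known fault of some iPSC lines, Meg3 stayed expressed, with 80.8 and 77.1 TPM in DMSO iPSC, against 291 and 337 TPM in MEF and 44.7 and 56.7 TPM in R1, and Dlk1 fell (-4.05). Grb10 (-4.31) and Cdkn1c (-5.02) also fell. Phlda2 (12.0 and 16.03 TPM in DMSO iPSC, 0 in MEF), Peg10 (3.49), Ddc (3.14) and Ascl2 (2.57) rose. Allele origin was not measured, and genes that overlap an antisense partner are uncertain because the strand setting is not given in the sources used here.

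Glycolysis genes went both ways, and the genes around threonine and glycine mostly rose. Of 25 glycolysis genes 11 rose, 4 fell and 10 were not called, with a median of 0.15. The glucose transporter gene Slc2a3 had 329 and 314 TPM in DMSO iPSC, against 3.94 and 4.25 TPM in MEF (5.98), and Hk2, the first enzyme of the pathway, rose (2.89), with Pdk1 (2.15), Slc16a1 (1.93) and Slc2a1 (1.82). Ldha, which makes lactate, had 991 and 950 TPM in DMSO iPSC and 957 and 1018 TPM in MEF, with no call, while Eno2 (-3.67), Tpi1 (-0.95) and Hk1 (-1.09), another hexokinase gene, fell. Of 31 genes of threonine, serine and one-carbon metabolism 30 passed the filter, 18 rose and 8 fell. Tdh, the threonine dehydrogenase on which mouse embryonic stem cells depend, had 424 and 437 TPM in DMSO iPSC and was listed at 0 in MEF. The glycine cleavage genes Gldc (48.2 and 45.5 TPM in DMSO iPSC, 0.078 and 0.168 TPM in MEF) and Amt (61.7 and 66.4 TPM in DMSO iPSC, 2.19 and 2.896 TPM in MEF) rose with it. Phgdh, the entry to serine synthesis, fell (-1.91), as did Aldh1l2 (-4.64).

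Most nuclear receptors and retinoid genes were lower in the iPSC, Rxra among them. Of 29 retinoid and nuclear receptor genes 24 passed the filter, 18 fell and 1 rose. Rxra had 10.3 and 10.7 TPM in DMSO iPSC, against 35.2 and 31.8 TPM in MEF (-1.58 ± 0.22, adjusted p = 4.52e-04), and 11.0 and 9.38 TPM in R1. Rxrg was listed at 0 in all 4 libraries, and Rxrb was not called, at 23.1 and 23.8 TPM in DMSO iPSC and 36.6 and 25.2 TPM in MEF. Crabp1, the cellular retinoic acid-binding protein, had 12.6 and 12.1 TPM in DMSO iPSC, against 1096 and 1266 TPM in MEF (-6.47), and Cyp26b1, which degrades retinoic acid, had 0 and 0.096 TPM in DMSO iPSC against 22.4 and 18.4 TPM in MEF. Thra (-3.22), Vdr (-3.04) and Nr2f2 (-2.84), other nuclear receptors, fell. Rbp4 was called higher at a low level, with 1.27 and 2.21 TPM in DMSO iPSC, and not without the second DMSO iPSC library (adjusted p = 0.0562) or the second MEF library (adjusted p = 0.0607).

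The RNA exosome, the 3′ to 5′ RNA-degrading complex named in the title of the study, was higher in several subunits. Of 30 listed genes of the exosome and its cofactors 25 were found and passed the filter, 13 rose and 4 fell, with a median of 0.48. Exosc5, of the ring, had 132 and 149 TPM in DMSO iPSC, against 26.0 and 38.9 TPM in MEF (2.11), and Exosc3, of the cap, had 62.2 and 48.3 TPM in DMSO iPSC, against 25.1 and 24.5 TPM in MEF (1.11 ± 0.19, adjusted p = 0.0016), with 54.6 and 72.6 TPM in R1. Exosc7 (1.61), Exosc2 (1.26), Exosc8 (1.24) and the nuclease gene Dis3 (1.31) rose. The cytoplasmic cofactor Skiv2l (-1.06) and Tent4a (-0.79) fell. Zfc3h1 (-0.80) and Dis3l (-0.57) also fell, but Zfc3h1 lost its call without the second MEF library (adjusted p = 0.0625) and Dis3l without any one of 3 libraries, the first DMSO iPSC and either MEF library (adjusted p = 0.112 to 0.183). Of 18 telomere genes 14 rose and 1 fell, led by the shelterin gene Terf1 (3.04), Rif1 (2.99) and Dkc1 (2.75), a component of telomerase. The 1 that fell, Acd (-0.44), lost its call without any single one of the 4 libraries (adjusted p = 0.0825 to 0.186).

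Noncoding RNAs of pluripotent cells rose as well. Of 34 listed genes 29 were found, 13 passed the filter, 8 rose and 3 fell. Lncenc1, a naive-state RNA, had 189 and 184 TPM in DMSO iPSC, against 0.732 and 0.997 TPM in MEF. Platr14 (135 and 148 TPM), Platr10 (72.6 and 93.1 TPM) and Platr3 (60.7 and 72.9 TPM) were expressed in DMSO iPSC and listed at 0 in MEF. Mir17hg, the host of a microRNA cluster that favours proliferation, rose (3.15), and the nuclear RNAs Malat1 (-2.13) and Neat1 (-1.99) fell. Mature microRNAs were not measured, and 11 of the 29 genes, among them most of the Mir290 cluster, were listed at 0 in all 4 libraries.

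Markers of other lineages went in both directions, most of them at low levels. Among muscle markers, the myosin light chain gene Mylpf had 330 and 393 TPM in DMSO iPSC, against 1.39 and 1.40 TPM in MEF, and 117 and 139 TPM in R1, while Myod1, Myf5 and Myf6 were listed at 0 in all 4 libraries. Only 6 of those 19 markers passed the filter, 2 rose and 3 fell. Among neural markers, Stmn2, a microtubule regulator, had 204 and 190.1 TPM in DMSO iPSC, against 4.08 and 3.79 TPM in MEF, and 197 and 213 TPM in R1. The neurofilament genes Nefl (37.5 and 34.3 TPM in DMSO iPSC, 0.12 and 0 TPM in MEF) and Nefm (20.6 and 18.6 TPM in DMSO iPSC, 0 in MEF) rose. Olig2, an oligodendrocyte factor, had 5.61 and 6.22 TPM in DMSO iPSC and was listed at 0 in MEF and in R1, while Dcx and Neurog2 were listed at 0 in all 4 libraries. Of 18 neural markers 12 passed, 8 rose and 3 fell. Of 24 extraembryonic endoderm markers, a fate that chemical reprogramming passes through, 18 passed, 6 rose and 9 fell. Lama1, a laminin chain, had 10.9 and 10.6 TPM in DMSO iPSC, against 1.19 and 0.976 TPM in MEF, and Cited1 had 6.403 and 6.375 TPM in DMSO iPSC and 0 in MEF. Sox7 (2.06 and 1.59 TPM in DMSO iPSC, 0.306 and 0 TPM in MEF) and Amn (1.42 and 1.35 TPM in DMSO iPSC, 0 and 0.138 TPM in MEF) also rose, and Amn lost its call without the first MEF library (adjusted p = 0.0607). Gata4 had 0.742 and 1.12 TPM in DMSO iPSC and 0.322 and 0.623 TPM in MEF, Sox17 0.698 and 1.23 TPM in DMSO iPSC and 0 in MEF, and Gata6 4.11 and 2.68 TPM in DMSO iPSC and 5.13 and 3.53 TPM in MEF, with no call for Gata4 or Gata6. The 9 that fell include the basement membrane genes Col4a1, Col4a2, Lamb1 and Sparc, which fibroblasts also express. Of 20 trophoblast markers 15 passed, 9 rose and 3 fell; Tfap2c had 27.9 and 30.1 TPM in DMSO iPSC and 0 in MEF, but Cdx2 had at most 0.771 TPM and Elf5 0 TPM in DMSO iPSC. Of 15 early mesoderm and endoderm markers 7 passed, 5 rose and 1 fell, with Eomes at 4.46 and 6.92 TPM in DMSO iPSC against 0.454 and 0.535 TPM in MEF. The number that rose was 3 to 4 when 1 library was left out: T lost its call without the second DMSO iPSC library or either MEF library, and Gsc without the first DMSO iPSC or the second MEF library. Of 13 keratinocyte markers 5 passed, 4 rose and 1 fell, and Krt5 was listed at 0 in all 4 libraries. Of 19 adipocyte and chondrocyte markers 10 passed, 3 rose and 7 fell, led by Col11a1 (-5.27).

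The X chromosome stood apart from the autosomes. Its 685 genes tested had a median change of 0.17 in DMSO iPSC minus MEF, where the autosomal medians ran from -0.21 on chromosome 19 to 0.09 on chromosome 4. The 37 genes tested of the mitochondrial genome, which is not drawn, had a median of 0.78. Against R1 on the scaled values the X median was 0.31, while the autosomal medians ran from -0.04 to 0.06. Of the X genes, 151 (22%) were higher and 10 (1.46%) lower in DMSO iPSC than in R1, and between 40 and 47 were higher, 5.84% to 6.86%, when 1 library of either group was left out, beside 2.66% to 2.98% of all genes. Xist, the RNA of the inactive X, had 1.47 and 0.963 TPM in DMSO iPSC, against 24.6 and 18.2 TPM in MEF (-3.33 ± 0.22, adjusted p = 1.17e-05), and 0.759 and 0.543 TPM in R1. The Y-linked genes Eif2s3y (59.0 and 51.0 TPM in DMSO iPSC, 18.6 and 19.4 TPM in MEF) and Ddx3y (33.2 and 27.4 TPM in DMSO iPSC, 13.4 and 13.5 TPM in MEF) rose. Both MEF libraries thus held Xist and Y-linked transcripts together, and both DMSO iPSC libraries held Y-linked transcripts with little Xist. The sex of the embryos or lines is not given in the labels.

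**Figure D5:**
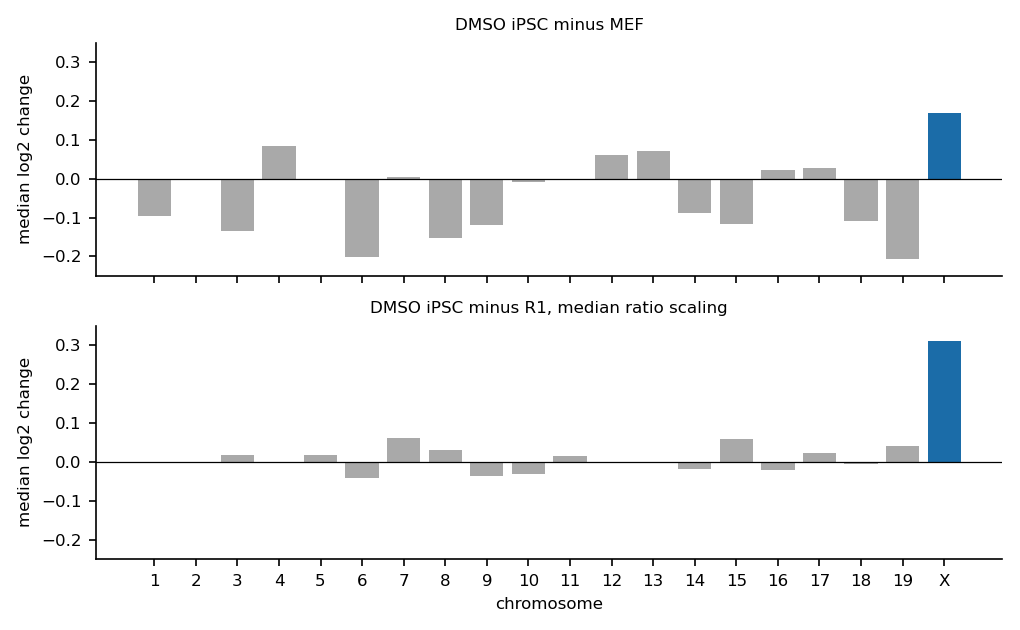
Bars are the median log2 change of the genes tested on each autosome and the X chromosome, above for DMSO iPSC minus MEF as deposited and below for DMSO iPSC minus R1 after median ratio scaling. The X chromosome, in blue, lies above every autosome in both, at 0.17 and 0.31.

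By gene class, calls on the values as deposited were read beside those of all genes tested, 31.4% higher and 36.2% lower. Of 13962 protein-coding genes tested 4368 (31.3%) rose, near that share, and 5849 (41.9%) fell. Of 421 long intergenic noncoding RNA genes 191 (45.4%) rose and 76 (18.1%) fell. Protein-coding genes outside the mitochondrial genome took 67.5% and 69.1% of all TPM in DMSO iPSC, against 80.3% and 82.8% in MEF. Counts by class against MEF were not made on other scalings. Of 155 snoRNA genes 42 (27.1%) rose and 1 (0.645%) fell. Processed pseudogenes had 489 of 1494 higher (32.7%) and 117 lower (7.83%), but they share reads with their parent genes and their levels are uncertain.

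Against the CD3254 iPSC, 3218 genes (18.5%) were higher and 3486 (20%) lower in DMSO iPSC, with a median of 0. Both groups expressed Pou5f1, at 1275 and 1446 TPM in DMSO iPSC and 1532 and 1138 TPM in CD iPSC. Zfp42 had 315 and 328 TPM in DMSO iPSC, against 88.9 and 80.8 TPM in CD iPSC, and Klf2 169 and 163 TPM in DMSO iPSC against 45.7 and 32.6 TPM in CD iPSC. Other pluripotency genes were lower in DMSO iPSC. Dppa5a had 2327 and 2319 TPM in DMSO iPSC, against 3508 and 3330 TPM in CD iPSC. Tdgf1 had 649 and 644 TPM in DMSO iPSC, against 905 and 1007 TPM in CD iPSC. These calls fell to 4021 genes without the second DMSO iPSC library and 4249 without the first, of 6704.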

How the data were processed

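Total RNA of mouse cells was sequenced, per the labels' protocols, by a commercial provider. Read trimming, alignment and quantification used fastp 0.20.1, HISAT2 2.1.0 and StringTie 2.0 on build mm10; these names come from the submitters' processing notes, while the roles are those the tools are known for. Neither the strand setting nor the annotation release is stated. The authors deposited TPM (transcript levels scaled to a fixed library total) per gene for 8 libraries in 1 table, with gene names for 55141 of 55401 identifiers. TPM keeps no read counts, so depth and counting error are unknown. A gene was tested if it had at least 1 TPM in at least 2 of the 8 libraries. log2(TPM + 1) was fitted with limma 3.58.1 in R 4.3.3 over all 8 libraries (DMSO iPSC, MEF, CD iPSC and R1, 2 each) with a trended eBayes prior, 2-sided tests and Benjamini-Hochberg adjustment over all genes tested; values after ± are standard errors. The log2(TPM + 1) scale understates the change of low genes. Figures and tables used matplotlib 3.10.9, pandas 2.3.3, numpy 2.4.6 and Python 3.11.15. The fit was also tested on simulated data of 17414 genes, with the mean and spread of each gene taken from the real values. In it, 100 genes with a mean log2(TPM + 1) over 2 were given a change of 1 on the log2 scale. Another 100 such genes were given a change of 2. Of these, 52 and 90 were called in the planted direction, with 11 false calls among the other genes. Only the planted genes changed, whereas 67.6% of genes were called in the real comparison. The simulation therefore does not describe low genes or a comparison with that many changes.

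Genes named are the 15 largest changes in each direction among protein-coding genes called with no overlap between the 4 libraries and a mean of at least 10 TPM in the higher group; up to 6 called members of each list with the largest change and up to 4 called against its majority; a fixed set (Pou5f1, Nanog, Sox2, Klf4, Myc, Lin28a, Rxra, Exosc3, Cdh1, Col1a1, Thy1, Meg3, Xist); and members listed at 0. Other genes were named after their values were seen. A few items are not reported here. The members and lists were chosen with earlier results of these data known. Comparisons with R1 and CD iPSC share the DMSO iPSC libraries with the main one. Promoter sequences are from RefSeq on GRCm38.p6.

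Alternatives were median ratio scaling, quantile normalization, TPM without mitochondrial genes, a pseudocount of 0.1, no filter, a filter at 5 TPM, the 4 libraries alone, no trend, a replicate block and leaving out each library. Median ratio scaling with a library left out, for the comparison with R1, was added after seeing the data.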

Additional observations from a re-analysis of the deposited data

How the results depend on the processing

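The counts of genes higher (5465) and lower (6303) in DMSO iPSC than in MEF stayed within 1.5 times under every alternative run, at 4338 to 6162 and 5164 to 6665, the lowest of each with a filter at 5 TPM, where fewer genes are tested. With a pseudocount of 0.1 in place of 1, the count of genes higher by 4-fold or more was 2530 in place of 1323, as low levels count for more on that scale. Against R1 the 3668 calls in either direction fell to between 922 and 1244 when 1 library of DMSO iPSC or R1 was left out: 1244 and 922 without the first and second DMSO iPSC library, 1036 and 991 without the first and second R1 library. Against CD iPSC the 6704 calls were 3992 with only the 4 libraries of the comparison, and 4021 at the lowest and 6511 at the highest when 1 library was left out; fewer samples and residual degrees of freedom are part of these settings. A group left with 1 library is assumed to vary like the others. Of 284 genes picked by the naming rules, most of which require a call, 283 had a call and 19 lost it in at least 1 alternative. Genes named after their values were seen are outside this count. Of 74 counts of list members called, 22 moved by over 1.5 times in at least 1 alternative. Myc, without a call, had a change of -0.06, and 0.077 with median ratio scaling, 0.17 with quantile normalization and 0.071 without mitochondrial genes; the cause was not tested. Of calls against R1, 30% were higher as deposited, 56.3% with median ratio scaling, 49.9% with quantile normalization and 39.7% without mitochondrial genes. Deviations of same-numbered libraries correlated at 0.04 between DMSO iPSC and MEF and at -0.125 to 0.059 over all pairs of groups. No pairing by number was seen in these values, which cannot show whether same-numbered libraries were prepared together. With a replicate block 5311 genes were higher and 6175 lower than in MEF. Without read counts the depth behind low values is unknown.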
